A study of Mus musculus with 9 samples.

Results

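Immediate early genes were followed across the hippocampus of ageing and transgenic mice, as Fos, Fosb, Jun, Junb, Egr1, Egr3, Arc, Nr4a1, Dusp1 and Ier2. All probes carrying these symbols were taken, with no filter on missing values. They came to 11 probes of 29922, for 10 of the 16637 gene symbols on the array. Fos had 2 probes and the other genes had 1 each; Fos probe 1 is mMC013536 on the array and Fos probe 2 is mMR027224.

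Genes of this class are switched on within minutes of synaptic activity, growth factor signalling or stress, from factors already present in the cell and without new protein synthesis. Calcium entry and the MAP kinase cascade activate CREB and the serum response factor, which act on the promoters of these genes. In hippocampal neurons their RNAs are read as a record of recent activity, and several are also induced by handling and by the time between death and freezing.

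The RNA came from the hippocampus of 8 female mice, with 1 hippocampus per mouse and 2 mice for each of the 4 combinations of genotype (WT or 3xTG) and age (3 or 12 months). WT mice carried the strain label 129SV with C57BL6. The 3xTG mice, a model of Alzheimer's disease, carry transgenes for mutant human APP and tau, and their strain label differs from that of the WT mice. The promoter driving the transgenes is not given in the sources used here. Genotype and strain label cannot be told apart. RNA was linearly amplified, and 9 two-colour arrays each set a test mouse against a reference mouse. The comparisons, on 3 arrays each, were ageing in WT mice (12 over 3 months) and genotype (3xTG over WT) at the younger and at the older age. Per the design text, 6 of the arrays were biological replicates and the other 3 technical.

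The 3 arrays of a comparison were not 3 separate pairs of mice. For WT at 12 over 3 months, mouse 25 was set against mouse 15 on array 1, mouse 24 against mouse 16 on array 2 and mouse 25 against mouse 16 on array 3. At 3 months, 3xTG mouse 23 was set against WT mouse 15 on array 1, and 3xTG mouse 22 against WT mouse 15 on array 2 and against WT mouse 16 on array 3. At 12 months, 3xTG mouse 4 was set against WT mouse 24 on array 1 and WT mouse 25 on array 2, and 3xTG mouse 7 against WT mouse 24 on array 3. The test RNA carried Cy5 on array 1 of WT at 12 over 3 months and on array 3 of each genotype comparison, and Cy3 on the other 6 arrays. The ageing comparison shares its 3-month WT mice with the first genotype comparison and its 12-month WT mice with the second, so values of one gene in these comparisons are not independent.

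Values below are log2 ratios of test over reference, relative to the median of the probes listed on that array, and are called centred log2 ratios. A positive value lies above the median probe of its array and a negative value below it. Array medians ran from -1.71 to 2.34 before centring, and each array listed 45.7 to 54.1% of its probes. No listed value lay between -0.5 and 0.5 before centring, so a probe without a value on an array may have had a small ratio or may have been left out for another reason. After centring, this empty window no longer lies at 0: it ran from -2.83 to -1.83 on array 2 of WT at 12 over 3 months and from 1.21 to 2.21 on array 3 of 3xTG over WT at 12 months. These arrays give ratios and no transcript levels, so the levels of the genes cannot be ranked and the presence of hippocampal markers in each mouse cannot be checked. In whole tissue, fewer cells that express a gene and less of its RNA per cell cannot be told apart.

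Promoters were searched for elements known to drive the early response, and are shown for the 4 members whose windows held the full cAMP response element, or its core together with an EGR site or a TATA box. Promoters of 6 of the 10 genes were matched in the RefSeq table of build GRCm38.p6: Fos, Fosb, Jun, Junb, Nr4a1 and Dusp1. The 250 bases before each start site were searched for TGACG, the core of the cAMP response element to which CREB binds, on both strands. It was found in 5 of these 6 promoters and in 17.8% of 32851 promoters in the table. The full palindrome TGACGTCA, which contains TGACG on both strands, was found for Dusp1 and in 1.55% of promoters. The EGR site GCGNGGGCG, which can be bound by the Egr1 and Egr3 proteins, was found on either strand for Fosb and Nr4a1 and in 4.70% of promoters. TATAAA was found on the gene's own strand for Fos and in 7.59% of promoters. No motif was found for Jun. The AP-1 site TGANTCA was found in 0 of the 6 and in 6.75% of promoters, and the CArG box of the serum response element in 0 of the 6 and in 1.47%. Bases farther upstream were not searched, so 0 of the 6 does not mean that these genes lack such sites. Capitals mark these matches below. The Fos window is chr12:85473790-85473889 on the plus strand, Fosb is chr7:19310046-19310145 on the minus strand, Nr4a1 is chr15:101266756-101266845 on the plus strand and Dusp1 is chr17:26508573-26508682 on the minus strand. Each is given 5′ to 3′ on the gene's strand and ends before the start site.
Fos: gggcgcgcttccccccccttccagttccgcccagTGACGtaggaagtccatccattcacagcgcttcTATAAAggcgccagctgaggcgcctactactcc
Fosb: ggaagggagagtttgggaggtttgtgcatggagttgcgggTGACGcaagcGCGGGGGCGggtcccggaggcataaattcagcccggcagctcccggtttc
Nr4a1: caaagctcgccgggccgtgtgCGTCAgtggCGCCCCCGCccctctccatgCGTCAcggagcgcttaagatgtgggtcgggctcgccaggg
Dusp1: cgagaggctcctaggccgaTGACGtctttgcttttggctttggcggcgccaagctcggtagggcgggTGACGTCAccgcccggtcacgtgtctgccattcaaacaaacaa
A match is a description of the letters, and the arrays did not measure binding.

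The 11 probes did not lie on 1 side of the array median in any comparison. Of 99 possible values, 55 were listed (55.6%, against 48.6% over all probes). For WT at 12 over 3 months, 8 of the 20 listed values lay above the array median, with a member median of -0.32. At 3 months of age 6 of 17 values lay above for 3xTG over WT, with a median of -0.24, and at 12 months 10 of 18 lay above, with a median of 0.20. Over all probes the median is 0 by construction. On single arrays the median of the listed members ran from -1.49, on array 3 of 3xTG over WT at 3 months, to 0.68, on array 1 of WT at 12 over 3 months, and every one of the 9 arrays had members on both sides of its median.

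**Figure D1:**
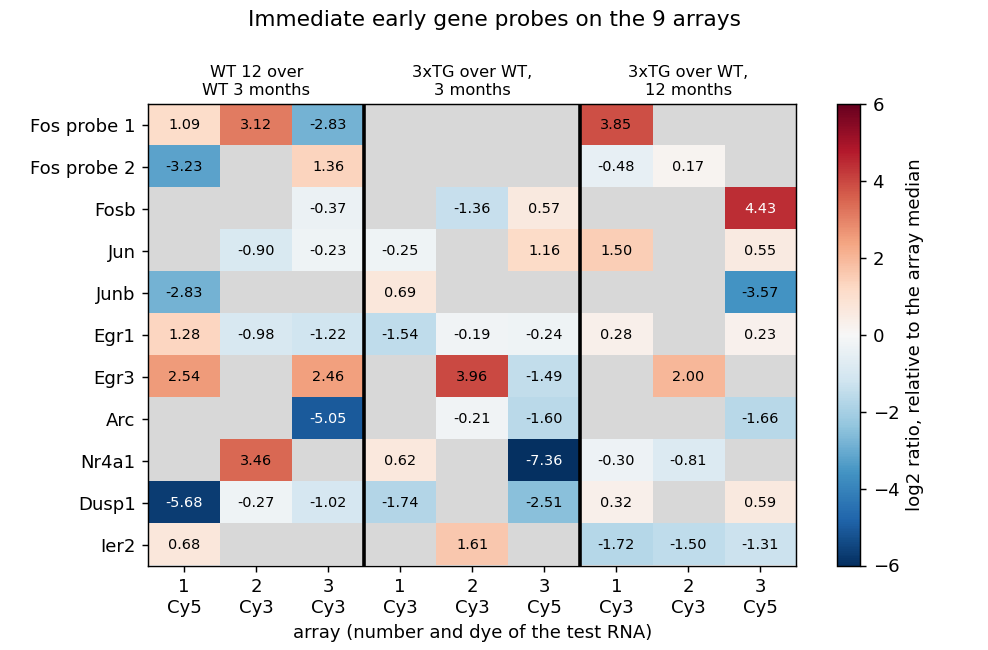
Centred log2 ratio of each immediate early gene probe (rows) on each of the 9 arrays (columns, with the dye of the test RNA), grouped by comparison. Red cells lie above the array median, blue cells below it, grey cells have no listed value, and colours saturate at 6 in either direction. The lowest value is -7.36 for Nr4a1 and the highest is 4.43 for Fosb.

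The counts above and below depend on where each array is centred. On the deposited scale, with no centring, 15 of 20, 8 of 17 and 4 of 18 values were positive in the 3 comparisons in the same order, against 81.3, 53.3 and 34.2% over all listed probes. Relative to abundant transcripts (ribosomal, proteasomal, mitochondrial and glycolytic genes), 11 of 20, 5 of 17 and 2 of 18 were positive, against 63.2, 41.4 and 24.2% over all probes. The lower share at 12 months under both of these scalings was also seen across the whole array.

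Agreement between arrays was read from the signs and from the SD. Among probes listed on 2 or 3 arrays of a comparison, members had 1 sign on all of them in 3 of 6 cases for WT at 12 over 3 months, where 51.2% of all such probes did. For 3xTG over WT the members did so in 3 of 7 cases at 3 months, against 56.3% of all probes, and in 5 of 6 cases at 12 months, against 58.2%. The median SD between arrays for members was 2.16, 0.996 and 0.28 in the 3 comparisons, against 1.22, 1.31 and 1.16 over all probes listed on 2 or 3 arrays. In ageing WT mice the 3 members listed on all 3 arrays had a median SD of 2.93, against 1.36 for all such probes, and the 3 listed on 2 arrays 0.47, against 1.16. At 12 months 1 member was listed on all 3 arrays, with an SD of 0.20 against 1.27, and the 5 listed on 2 arrays had a median of 0.36 against 1.12.

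No member passed the test in any comparison, and neither did any other probe on the array. The share of probes with a limma adjusted p under 0.05 was 0% in each of the 3 comparisons, 0% for the genotype difference at 12 months minus that at 3 months and 0% for 3xTG at 12 over 3 months reached through the WT mice. At an unadjusted p under 0.05, 808 probes (7.23% of those tested) passed for WT at 12 over 3 months, 836 (8.09%) for 3xTG over WT at 3 months and 982 (8.94%) at 12 months. For the derived contrasts these were 248 (3.64%) and 175 (4.8%). One member value, that of Nr4a1, had an unadjusted p below 0.05 at 3 months and another, again of Nr4a1, at 12 months.

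Centring moved all probes together. The median fitted ratio over all probes was -0.04, -0.06 and 0.16 in the 3 comparisons, 1.84, 0.24 and -1.02 with no centring, and 0.53, -0.69 and -1.51 relative to abundant transcripts. For WT at 12 over 3 months, 146 probes above and 662 below had an unadjusted p under 0.05, and with no centring 1509 above and 56 below. For 3xTG over WT at 12 months these were 820 above and 162 below, and 143 above and 821 below with no centring. At 3 months they were 502 above and 334 below, and 800 above and 182 below with no centring.

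**Figure D2:**
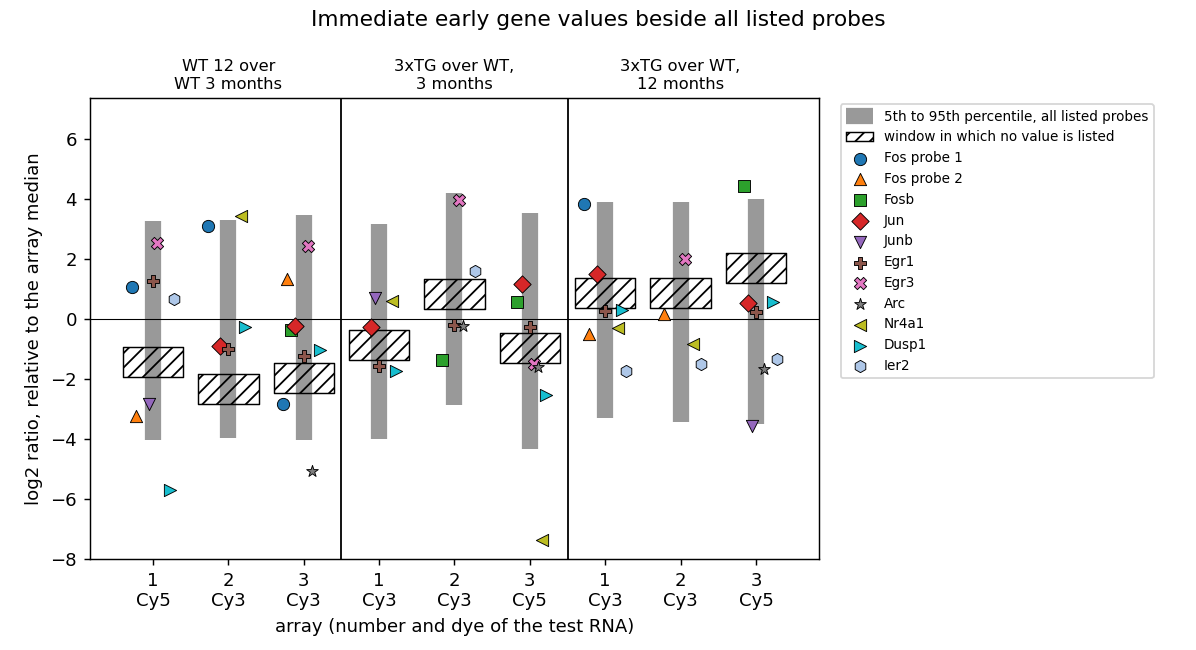
Centred log2 ratios of the immediate early gene probes (symbols) on each array, beside the range from the 5th to the 95th percentile of all listed probes (grey bars). Hatched boxes mark the range in which an array lists no value, which lies below 0 on the 3 arrays of WT at 12 over 3 months and above 0 on the 3 arrays of 3xTG over WT at 12 months. Most members lie inside the grey bars.

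Fos, Fosb, Jun and Junb encode subunits of the AP-1 transcription factor, which binds DNA as a Fos-Jun or Jun-Jun dimer. Fos is the most widely used marker of recently active neurons, and its 2 probes gave opposite readings. In WT mice at 12 over 3 months, Fos probe 1 was at 1.09, 3.12 and -2.83 on arrays 1 to 3. Fos probe 2 was at -3.23 on array 1 and 1.36 on array 3, with no value on array 2. Where both probes were listed their signs were opposite, and each probe also changed sign between arrays 1 and 3. These arrays share mouse 25 as the test animal but differ in the 3-month mouse and in dye. Read as Cy5 over Cy3, probe 1 would be at 1.09, -3.12 and 2.83, and probe 2 at -3.23 and -1.36. The fitted ratios were 1.37 ± 1.97 (SE, limma adjusted p = 0.974) for probe 1 and -0.77 ± 1.23 (SE, limma adjusted p = 0.975) for probe 2.

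Neither Fos probe had a value on any array of 3xTG over WT at 3 months. At 12 months, Fos probe 1 was listed only on array 1, at 3.85. Fos probe 2 was at -0.48 on array 1 and 0.17 on array 2, which set the same 3xTG mouse against different WT mice. The fitted ratio of probe 2 at 12 months was -2.45 ± 1.61 (SE, limma adjusted p = 0.66), outside the range of both measured values, because both arrays carry the test RNA in Cy3 and the dye term was estimated on the ageing arrays. With no dye term it was -0.16 ± 1.84 (SE). These arrays give no direction for Fos in 3xTG mice.

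Disagreement in sign between probes of a gene was common in this table, and differences as large as those of Fos were less so. The Fos probes differed by 4.19 to 4.33 log2 units on the 3 arrays that listed both. Across 2893 genes with exactly 2 probes, 6341 pairs of values were listed on the same array, and 46.4% of these pairs had opposite signs. Their values correlated at 0.10 (Pearson's r) across pairs, which are not independent replicates. The median difference was 1.92 log2 units, and 16.9% of pairs differed by at least the smallest Fos difference. For the 9 genes with a single probe, no second reading was available for such a check.

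**Figure D3:**
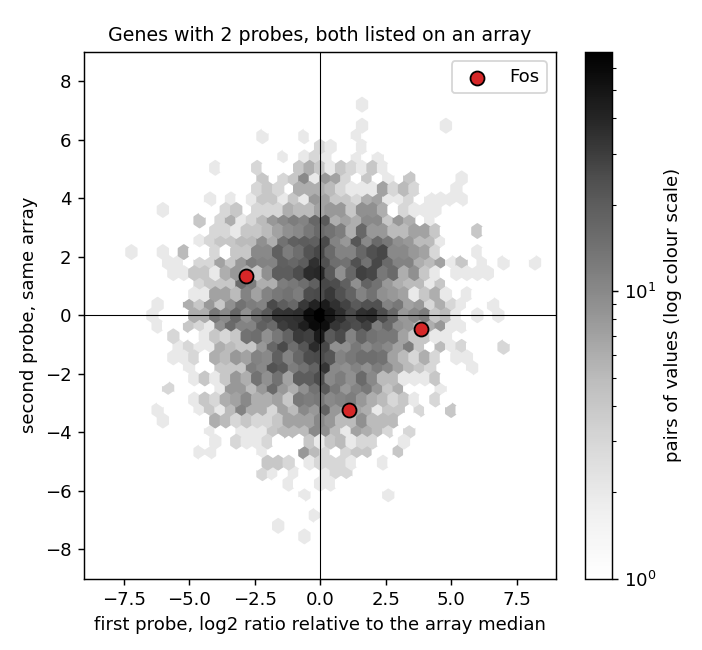
Centred log2 ratios of the first and second probe on the same array, for genes with exactly 2 probes. Grey hexagons count pairs of values on a log colour scale, and red points are the 3 arrays that listed both Fos probes, all in the quadrants of opposite sign.

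Fosb, which also yields the long-lived truncated form known as ΔFosB, was listed on 4 arrays. It was at -0.37 on array 3 of WT at 12 over 3 months. At 3 months it was at -1.36 on array 2 and 0.57 on array 3, which share 3xTG mouse 22 but differ in the WT mouse and in dye. At 12 months it was at 4.43 on array 3, the 96.4th percentile of the values on that array. The 12-month value stood far from the others but was measured on a single array, and the dye term left Fosb no residual degree of freedom in any comparison. With no dye term its 3-month ratio was -0.40 ± 1.52 (SE, limma adjusted p = 0.975).

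Jun was listed on 6 arrays, 2 in each comparison. In WT mice at 12 over 3 months it was at -0.90 on array 2 and -0.23 on array 3. At 3 months it was at -0.25 on array 1 and 1.16 on array 3, and at 12 months at 1.50 on array 1 and 0.55 on array 3. Jun thus lay below the median on both arrays in ageing WT mice, on either side of it at 3 months and above it on both arrays at 12 months. The fitted ratios were -0.81 ± 1.53 (SE, limma adjusted p = 0.982) for ageing, for genotype at 3 months 0.46 ± 1.10 (SE, limma adjusted p = 0.922), and at 12 months 0.85 ± 1.19 (SE, limma adjusted p = 0.843). All 3 were smaller than their SE. The ageing and 12-month values turned sign with no centring, to 1.01 and -0.34, and relative to abundant transcripts, to 0.11 and -0.82. Without either array of 3xTG over WT at 12 months the ageing value was 0.14.

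Junb, the AP-1 subunit often described as a weaker activator that can oppose Jun, was listed on 1 array in each comparison. It was at -2.83 on array 1 of WT at 12 over 3 months, at 0.69 on array 1 of 3xTG over WT at 3 months and at -3.57 on array 3 at 12 months. Both low values came from arrays with the test RNA in Cy5 and the higher one from an array with it in Cy3. No replicate was available for Junb, and it was not tested.

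Egr1 and Egr3 encode zinc finger transcription factors that bind GC-rich sites. Egr1, also known as Zif268, is widely used as a marker of activity in hippocampus. Egr1 had the most complete record of the 10 genes, with 8 of 9 arrays. In WT mice at 12 over 3 months it was at 1.28, -0.98 and -1.22 on arrays 1 to 3. At 3 months it was at -1.54, -0.19 and -0.24 for 3xTG over WT, and at 12 months at 0.28 on array 1 and 0.23 on array 3. Egr1 was therefore below the median on all 3 arrays at 3 months and slightly above it on both listed arrays at 12 months.

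The fitted Egr1 ratios were all smaller than their SE: -0.001 ± 0.98 (SE, limma adjusted p = 1) for WT ageing, at 3 months -0.71 ± 0.98 (SE, limma adjusted p = 0.849), and at 12 months 0.24 ± 1.09 (SE, limma adjusted p = 0.962). The genotype difference at 12 months minus that at 3 months was 0.95 ± 1.47 (SE, limma adjusted p = 0.993). On the deposited scale the 12-month values were -0.59 and -1.48, negative like 2 of the 3 values at 3 months, and this contrast became -0.82. Relative to abundant transcripts it was -0.25. Neither the sign of the 12-month ratio nor that of the contrast was kept across centrings.

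Egr3 was listed on 5 arrays and lay above the median on 4 of them. In WT mice at 12 over 3 months it was at 2.54 on array 1 and 2.46 on array 3, with a mean of 2.50 ± 0.06 (SD, n = 2 arrays). Those arrays share the 12-month mouse 25 and differ in the 3-month mouse and in dye. At 3 months Egr3 was at 3.96 on array 2 and -1.49 on array 3. Both used 3xTG mouse 22, with different WT mice and dyes. At 12 months Egr3 was at 2.00 on array 2. Its readings thus agreed closely in ageing WT mice and differed by over 5 log2 units at 3 months. The fitted ratios were 2.50 ± 1.66 (SE, limma adjusted p = 0.871) and 1.24 ± 1.66 (SE, limma adjusted p = 0.849). The positive ageing value was kept with no centring and relative to abundant transcripts, where the means were 4.18 and 3.08. Read as Cy5 over Cy3 the ageing values would be 2.54 and -2.46, with a fitted ratio of 0.04.

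Shared mice gave a check on Egr1 and Egr3. The ratio of WT mice 16 and 15 can be reached by a route through mouse 25 in the ageing comparison and by a route through 3xTG mouse 22 at 3 months. For Egr1 these routes gave 2.501 and 0.05, and for Egr3 0.08 and 5.45. The arrays of this loop hold both dye orientations, so that a dye effect enters its routes with opposite sign. Over 1871 probes with both routes the values correlated at -0.05 across probes, with a median difference of 2.03 log2 units, and the differences for Egr1 and Egr3 were at the 57.6th and the 84.6th percentile. The routes had the same sign for 52.1% of probes. For the other loop, of WT mice 24 and 25, the correlation was 0.06 over 2172 probes and the median difference 1.83, with 53.1% of the same sign and every array of that loop in one dye orientation. No member had all 4 values of the second loop.

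Nr4a1 encodes an orphan nuclear receptor that acts as a transcription factor without a known hormone ligand. It was at 3.46 on array 2 of WT at 12 over 3 months, its only value there. At 3 months it was at 0.62 on array 1 and -7.36 on array 3, the 0.14th percentile of that array and the most extreme member value of all. At 12 months it was at -0.30 on array 1 and -0.81 on array 2. The arrays at 3 months differed by nearly 8 log2 units and in both mice and in dye. The 12-month values were close to the median and to each other.

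The fitted Nr4a1 ratios had the smallest p-values among the members. At 3 months the ratio was -3.37 ± 1.13 (SE, unadjusted p = 0.0323, limma adjusted p = 0.607). At 12 months it was -4.54 ± 1.73 (SE, unadjusted p = 0.0483, limma adjusted p = 0.551). The residual here had 1 degree of freedom, which came from the pair of arrays at 12 months alone. The dye term took up the gap between the arrays at 3 months. The p at 3 months therefore holds none of that gap. The 12-month value lay far below both measured values, because it adds a dye term that rests on the pair of arrays at 3 months. With no dye term the ratios were -3.37 ± 1.94 (SE) at 3 months and -0.56 ± 2.25 (SE) at 12 months, and the contrast of 12 minus 3 months moved from -1.18 to 2.81. The 3-month value rests on array 3 alone, since array 1 was slightly above the median.

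Arc encodes a protein of the postsynaptic density that promotes the removal of AMPA receptors, and its RNA is carried to active dendrites. It was listed on 4 arrays and lay below the median on all 4, the only probe of the 11 with all its values on 1 side. How many of all probes listed on 4 arrays had 1 sign was not counted. It was at -5.05 on array 3 of WT at 12 over 3 months, the 2.11th percentile of that array. At 3 months it was at -0.21 on array 2 and -1.60 on array 3 for 3xTG over WT, and at 12 months at -1.66 on array 3. On the deposited scale, too, all 4 values were negative, from -3.37 to -0.64, and so they were relative to abundant transcripts, from -4.26 to -1.73. Arc was listed on 2 arrays at 3 months, where the mean was -0.91 ± 0.98 (SD, n = 2 arrays), but the dye term left no residual degree of freedom and no p was given. With no dye term the 3-month ratio was -0.91 ± 1.47 (SE, limma adjusted p = 0.904). With the ratio read as Cy5 over Cy3, 2 of the 4 values would be positive.

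Dusp1 encodes a phosphatase of the nucleus that switches off MAP kinases and so limits the response that induces the other genes. It was listed on 7 arrays. In WT mice at 12 over 3 months it was at -5.68, -0.27 and -1.02 on arrays 1 to 3. At 3 months it was at -1.74 on array 1 and -2.51 on array 3 for 3xTG over WT, and at 12 months at 0.32 on array 1 and 0.59 on array 3. Dusp1 lay below the median on all 5 arrays of the first 2 comparisons, which share their 3-month WT mice as reference, and above it on both arrays at 12 months.

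The ageing ratio of Dusp1 was -2.82 ± 1.26 (SE, unadjusted p = 0.0604, limma adjusted p = 0.722). It rests largely on array 1, at the 1.23rd percentile of that array, and without that array it was -0.62. On the deposited scale arrays 2 and 3 were positive, at 2.07 and 0.93. The genotype ratios were -2.13 ± 1.29 (SE, limma adjusted p = 0.667) at 3 months and, at 12 months, 0.81 ± 1.39 (SE, limma adjusted p = 0.883). The value at 12 minus that at 3 months was 2.94 ± 1.90 (SE, limma adjusted p = 0.99). The 12-month ratio turned to -0.38 with no centring and to -0.83 relative to abundant transcripts, and the 3-month ratio stayed negative under both.

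Ier2 encodes a small nuclear protein induced by serum and growth factors. It was the only member listed on all 3 arrays at 12 months, at -1.72, -1.50 and -1.31 for 3xTG over WT, with a mean of -1.51 ± 0.20 (SD, n = 3 arrays). These arrays covered both dye orientations, both 3xTG mice and both WT mice of that age. The median SD of all probes listed on all 3 arrays was 1.27. Its readings were the closest of any member listed on all 3 arrays of a comparison, and on the deposited scale all 3 were also negative, from -3.02 to -2.38. The fitted ratio was -1.43 ± 1.10 (SE, unadjusted p = 0.251, limma adjusted p = 0.707), on 1 residual degree of freedom, so that the SE draws on the spread that limma shares between probes. Ier2 was at 0.68 on array 1 of WT at 12 over 3 months and at 1.61 on array 2 of 3xTG over WT at 3 months, its only values there, and both lay above the median. With the ratio read as Cy5 over Cy3, the 12-month values would be 1.72, 1.50 and -1.31.

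**Figure D4:**
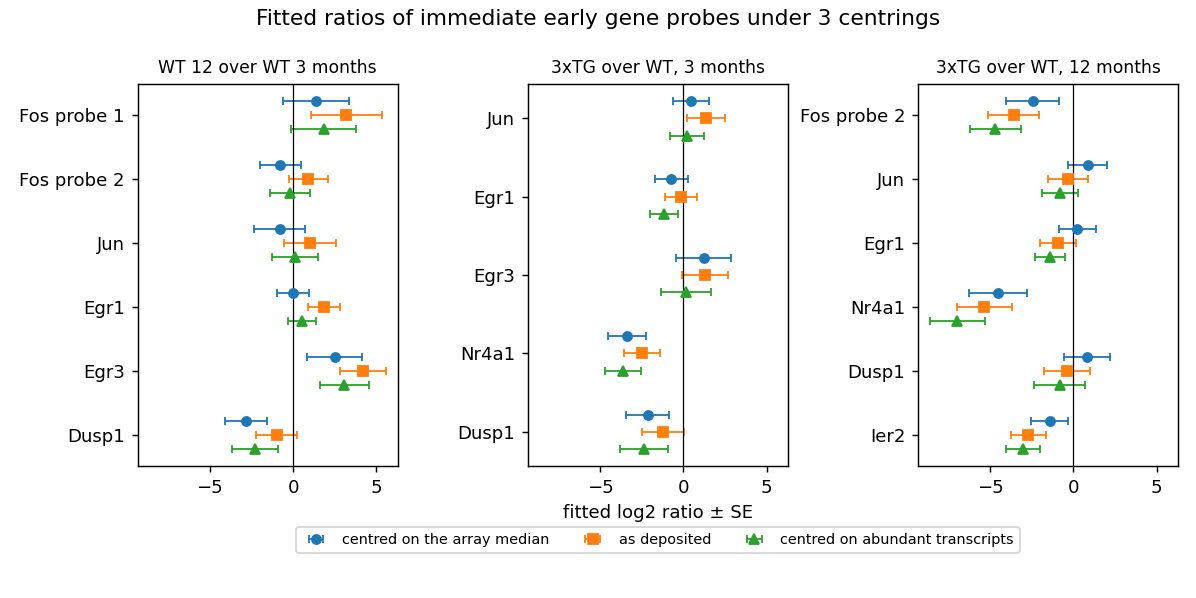
Fitted log2 ratio ± SE of each immediate early gene probe that could be tested, for each comparison, with arrays centred on their own median (circles), as deposited (squares) and relative to abundant transcripts (triangles). Jun, Egr1 and Dusp1 at 12 months lie above 0 with median centring and below 0 in the other 2 settings, and Ier2 lies below 0 in all 3.

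The age difference within 3xTG mice was not hybridised and could be derived through the WT mice for 3 members. It was -0.41 ± 1.83 (SE) for Jun, 0.95 ± 1.38 (SE) for Egr1 and 0.12 ± 1.79 (SE) for Dusp1, each with a limma adjusted p of 0.999. Each was smaller than its SE. Without array 1 of WT at 12 over 3 months Egr1 was at -0.02 and Dusp1 at 2.16, and without array 2 Dusp1 was at -0.77. With no centring Dusp1 was at -0.15, and relative to abundant transcripts at -0.77.

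Arrays differed in the series number of the raw file, which ran from 57 to 66 for 5 arrays and from 86 to 91 for 4. All ageing arrays were in the first run, and each genotype comparison had array 1 in the first and arrays 2 and 3 in the second. Within 3xTG over WT at 12 months, array 1 and the later arrays had the same sign for Jun, Egr1, Dusp1, Ier2 and Nr4a1, and the opposite sign for Fos probe 2. At 3 months they had the same sign for Egr1 and Dusp1 and opposite signs for Jun and Nr4a1. Each value is given by array above, and whether this number stands for a technical batch is not given in the sources used here.

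Related genes were taken as lists by role. The first list held 24 other immediate early genes, most of them transcription factors such as Egr2, Npas4, Atf3 and Klf4. Of their probes, 9 could be tested for ageing, 5 for genotype at 3 months and 9 at 12 months, and 0 passed. They lay above 0 in 5 of 9, 3 of 5 and 4 of 9 cases, beside 49.0, 48.8 and 53.4% of all probes tested. Btg2, an antiproliferative early response gene, was at -2.49, -6.14 and -3.05 on the 3 ageing arrays (fit -3.97 ± 1.26 SE, limma adjusted p = 0.628). Zfp36, which promotes decay of unstable RNAs, was at -1.43, -0.56 and -1.64 at 12 months (fit -1.31 ± 1.07 SE, limma adjusted p = 0.72). Klf10 was at 0.22, 1.72 and 1.64 at 3 months (fit 1.11 ± 1.07 SE, limma adjusted p = 0.79).

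Dusp1 belongs with other inhibitors of the MAP kinase response. Of 15 phosphatases and feedback inhibitors on the array, 12, 9 and 9 probes could be tested in the 3 comparisons, and 0 passed. Of these, 6, 3 and 5 lay above 0, with medians of 0.15, -1.03 and 0.34. Spred2, which restrains Raf, was at 0.16, 0.79 and 1.22 for ageing and at -1.04, -1.08 and -0.55 at 12 months, comparisons that share the 12-month WT mice. Sik1, a kinase that holds back CREB coactivators, was at 0.01, 4.42 and 0.97 at 12 months, and Dusp14 at 3.61, 3.52 and 0.41. None of these passed.

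Arc belongs with synaptic effectors that activity induces. Of 22 such genes on the array, 8, 7 and 9 probes could be tested, and 0 passed, with medians of 1.31, 0.23 and 0.31. Nrn1, a membrane-anchored ligand that stabilises synapses, was at 4.401, 5.26 and 5.55 for 3xTG over WT at 3 months (fit 5.004 ± 1.007 SE, unadjusted p = 0.00117, limma adjusted p = 0.607) and at 3.40, 2.79 and 2.69 at 12 months. Rgs4, a brake on G protein signalling, was at -2.66, -5.25 and -3.37 for ageing and at 5.01, 2.63 and 3.99 for genotype at 12 months. Plk2, a kinase that weakens overactive synapses, was at -3.02, -3.22 and -3.53 for ageing and at 2.30, 3.26 and 2.59 at 12 months. The latter comparisons share the 12-month WT mice, in the numerator of one and the denominator of the other. These genes were picked for 1 sign on all 3 arrays and small p, and their adjusted p missed the threshold as well.

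Upstream of the immediate early genes are Ras, the MAP kinase cascade and calcium-dependent kinases. Of 19 such genes on the array, 8, 12 and 8 probes could be tested, and 0 passed, with 3, 6 and 6 above 0. Hras was at -3.15, -5.21 and -6.05 for ageing and at -2.85, -0.998 and -2.24 for genotype at 3 months, comparisons that share the 3-month WT mice as reference. Map2k2, the kinase that activates ERK, was at -2.13, -3.78 and -3.91 and at -2.55, -1.83 and -4.18 in the same comparisons. At 12 months the stress kinases Mapk8, Mapk9 and Mapk10, which phosphorylate Jun, had fitted ratios of 2.78, 2.28 and 2.51 (limma adjusted p from 0.551 to 0.56), beside the Jun ratio of 0.85. Camkk1, which activates CaM kinases, was at 3.05. For Camk2b the probes disagreed in ageing mice, at -3.48 and 0.91. The first of these probes was at -2.20, -1.05 and -4.285 for genotype at 3 months, and Camk2a was at -2.77, -1.94 and -4.02.

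Among 15 transcription factors and coactivators that act on immediate early promoters, 12, 9 and 11 probes could be tested, and 0 passed. Mef2c, an activity-dependent transcription factor of neurons, was at -3.08, -1.78 and -4.06 for ageing and at 5.22, 4.54 and 3.80 at 12 months. Creb1 was at 2.11, 4.12 and 0.03 for ageing. Crtc1, the CREB coactivator, was at -2.29, -4.17 and -2.63 for ageing. For Crebbp, which encodes the CREB-binding acetyltransferase, the probes had opposite fitted ratios at 12 months, at -1.68 and 1.20. The second of these probes was at 4.58, 2.63 and 3.28 for ageing (fit 3.82 ± 1.17 SE, limma adjusted p = 0.628). Elk3 was at -3.72, -2.28 and -2.997 for genotype at 3 months.

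Heat shock and other genes that respond to tissue handling were measured beside the immediate early genes. Of 9 on the array, 4, 4 and 5 probes could be tested, with medians of 0.12, 0.47 and -0.52 and fitted ratios between -1.62 and 1.24. Hspa1b, an inducible chaperone, was at 0.94, 1.80 and 1.06 for genotype at 3 months, and Dnajb1, its partner, at -0.25, -0.69 and -0.47 at 12 months. None passed, and the part of tissue handling in the immediate early gene values was not tested.

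Cell type markers were read beside these values. Pyramidal cell markers had a median of -0.86 for ageing, with 2 of 6 tested probes above 0, of 1.70 at 3 months with 6 of 7 above, and of 2.23 at 12 months with 5 of 5 above. Of all probes tested, 49.0, 48.8 and 53.4% lay above 0 in these comparisons. Marker values are given with median centring only. At 12 months the median over all probes moved from 0.16 to -1.02 with no centring and to -1.51 relative to abundant transcripts. Dentate granule cell markers had medians of 0.24, 1.27 and 2.54 over 3, 3 and 2 probes. General neuronal markers were at 1.37, 0.84 and -0.18 over 5, 5 and 4 probes, and oligodendrocyte markers at -2.62, 0.60 and -0.32 over 3, 2 and 3. Astrocyte, microglia and endothelial lists had 1 or 2 tested probes each. The choroid plexus list had a median of -0.17 over 3 probes at 12 months, with 1 above 0 and a highest value of 1.30. Its lowest was Ttr, the thyroid hormone carrier of that tissue, at -3.57, -3.49 and -3.73. No marker of blood could be tested. No marker probe passed, and the part of cell composition in the immediate early gene values was not tested.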

How the data were processed

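Total RNA of single hippocampi was amplified, labelled with Cy5 or Cy3 and hybridised to two-colour arrays, per the labels' protocols. The deposited values are log2 ratios, 1 per probe and array. How the spots were scanned, corrected, normalized and filtered is not given in the sources used here. The log base and the direction (test over reference) were read from the values and labels. Opposite-dye arrays of a comparison correlated at 0.197 to 0.308 across probes under that reading, and the lowest correlation of any 2 arrays was -0.16. Symbols came from the platform annotation: 21020 probes had 1 symbol, 8902 had none, and 2728 symbols were updated through RefSeq synonyms.

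From each array's values their median was subtracted. A model per probe over all 9 arrays was fitted by generalised least squares with limma 3.58.1 in R 4.3.3, with a coefficient per comparison, 1 dye term and a covariance from shared mice (variance between mice over that between arrays 1.02, from the 142 probes listed on all arrays), then eBayes with Benjamini-Hochberg adjustment over all probes tested and a threshold of 0.05. A probe was tested where at least 2 of the 3 arrays listed it and 1 residual degree of freedom was left. In all, 16038 probes were fitted. On simulated data 4.57 to 5.04% of unchanged probes had an unadjusted p under 0.05. The simulation used the variance ratio of the fit, an equal spread for all probes and no dye effect. It therefore checks the computation and not how well the model describes these arrays. Alternatives covered centring, dye term, covariance, filters, ratio direction, file number, a replicate block in place of the dye term, and each array left out. The experiment numbers in the labels were not used to pair the arrays in the main fit. Same-numbered arrays had correlated deviations of -0.08 to 0.24 over 142 probes, a range that cannot exclude pairing. Every probe of the 10 genes is named. For related lists, genes were drawn from up to 4 of smallest p among probes with 1 sign on all 3 arrays. Not all of these are named. The genes and the lists were chosen with earlier results of these data known. The p-values rest on the spread that the model leaves between arrays of 2 mice per group. They also draw on the spread that limma shares between probes (3.82 prior degrees of freedom). For a probe listed on few arrays, the dye term can take up a gap between arrays. The numbers of mice and of arrays limit the precision. The full strain label of the 3xTG mice is not reported here.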

Additional observations from a re-analysis of the deposited data

Results flagged for a closer look

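Egr1 and Dusp1 lay on opposite sides of the array median for 3xTG over WT at the 2 ages. Egr1 was at -1.54, -0.19 and -0.24 at 3 months and at 0.28 and 0.23 at 12 months, and the contrast of 12 minus 3 months was 0.95 ± 1.47 (SE, limma adjusted p = 0.993). Dusp1 was at -1.74 and -2.51 at 3 months and at 0.32 and 0.59 at 12 months, with a contrast of 2.94 ± 1.90 (SE, limma adjusted p = 0.99). For both genes every listed array of one age was below and every listed array of the other above. How many of all probes split in this way was not counted. Of all probes listed on 2 or 3 arrays, 56.3% had 1 sign at 3 months and 58.2% at 12 months. The fitted contrast lay above 0 for 57.9% of all probes tested, with a median of 0.41. The difference itself was tested and did not pass for either gene. On the deposited scale and relative to abundant transcripts the 12-month values of both genes were negative. The Dusp1 contrast kept its sign in every alternative that gave a value, and that of Egr1 did not.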

How the results depend on the processing

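No probe of the array was called in any of the settings run, the replicate block included (0 in each comparison, with 516, 437, 441, 153 and 137 probes at an unadjusted p under 0.05). The block took the place of the dye term, and gave Dusp1 -2.44 for ageing, -1.22 at 3 months and 1.36 at 12 months. With arrays taken as independent, 1507, 1711, 1930, 664 and 190 probes had an unadjusted p under 0.05, the smallest adjusted p of a member was 0.22, and Jun and Dusp1 turned sign for 3xTG at 12 over 3 months through WT, to 0.11 and -0.11. The 2 routes to a pair of WT mice correlated at -0.05 and 0.06, where the variance ratio used would imply 0.51. Of 194 member values under the 10 other settings 43 turned sign, and of 148 with an array left out 10 did. Member values above 0 for ageing were 8, 15 with no centring and 13 read as Cy5 over Cy3; at 12 months they were 10, 4 with no centring and 2 relative to abundant transcripts. With no centring, Jun was at 1.01 (ageing), -0.34 (12 months) and -1.70 (12 minus 3 months), Egr1 at 1.85, -0.95 and -0.82, Fos probe 2 at 0.91 (ageing) and Dusp1 at -0.38 (12 months). Relative to abundant transcripts, Jun was at 0.11, -0.82 and -1.04, Egr1 at 0.53, -1.40 and -0.25, and Dusp1 at -0.83 (12 months). With unlisted values set to 0, Jun was at 0.79, -0.36 and -1.46, Egr1 at 1.91, -0.60 and -0.47, Dusp1 at -0.72 (12 months) and Nr4a1 at 1.48 (12 minus 3 months). Read as Cy5 over Cy3, Jun was at 1.48, -0.31 and -1.01, Egr1 at 1.17, 0.54 (3 months), -0.082 and -0.63, Fos probe 1 at -0.28 (ageing), Egr3 at -2.73 (3 months), Ier2 at 0.12 (12 months) and Nr4a1 at 1.18 (12 minus 3 months). The file number term moved Egr1 for ageing to 0.042, and leaving out the dye term moved Nr4a1 for 12 minus 3 months to 2.81. For 3xTG at 12 over 3 months through WT, Dusp1 was at -0.15 with no centring, -0.77 relative to abundant transcripts, -0.66 with unlisted values set to 0 and -1.74 read as Cy5 over Cy3, a reading that put Jun at 0.47. With 1 array left out, this contrast ran from -0.77 to 2.16 for Dusp1 and from -0.019 to 1.15 for Egr1, and ageing values ran from -1.04 to 0.14 for Jun and from -1.08 to 0.15 for Egr1. The causes of these turns were not tested. The replicate block and the file number term gave a value for 15 of the 24 member results each, and the filter on all 3 arrays for 5. Scanner signal over background is unknown.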

Other observations

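Read as Cy5 over Cy3 in place of test over reference, the Egr1 values for WT at 12 over 3 months were 1.28, 0.98 and 1.22, closer to each other than in the reading used. This was noticed after the values had been seen, and the reading was not chosen by it. Under Cy5 over Cy3, mixed signs also became shared for Fos probe 2 in ageing and for Fosb, Jun, Egr3 and Nr4a1 at 3 months. Shared signs became mixed for Dusp1 in every comparison and for Egr3 in ageing. They also became mixed for Egr1 and Arc at 3 months and for Jun, Egr1 and Ier2 at 12 months. Of the 55 listed values, Nr4a1 at -7.36, Dusp1 at -5.68 and Arc at -5.05 were the 3 lowest, and Fosb at 4.43, Egr3 at 3.96 and Fos probe 1 at 3.85 the 3 highest. These values came from 6 different arrays.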
